A study of Homo sapiens with 4 samples.

Results

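This account covers 9 genes of the p53 and ATR DNA damage checkpoint, taken out of 19974 protein-coding genes, and the BCL6 peaks found at them. The genes were chosen by name, namely ATR, ATM, CHEK1, CHEK2, MDM2, PPM1D, GADD45A, GADD45B and SESN1. A peak was assigned to a gene when its summit lay inside the gene or within 50 kb of either annotated end. The assay was CUT&RUN, in which an antibody directs a nuclease to its target on chromatin and the released fragments are sequenced. The cells were SUDHL5, an established line of diffuse large B-cell lymphoma (DLBCL), and no treatment, allele or added agent is named for them. Antibody to BCL6 was used in 2 biological replicates and normal rabbit IgG in 2 others, whose values were not analysed here. Every result therefore describes 1 cell line in 1 state. The peak lists hold no expression values, so the identity of the cells could not be checked against marker genes.

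The replicate 1 list held 5230 peaks on chromosomes 1 to 22 and X, and the replicate 2 list held 3529. Read totals are unknown. A summit pileup, the number of fragments stacked over the highest point of a peak, had a median of 23 in replicate 1 and 21 in replicate 2. The median fold enrichment, which is the authors' ratio of that pileup to the local background, was 3.55 and 3.74. An overlap with the other list was found for 25.7% of peaks in replicate 1 and for 38.4% in replicate 2.

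When DNA is damaged or replication stalls, the sensor kinases ATR and ATM are activated and pass the signal to the kinases CHK1 and CHK2, which halt the cell cycle. Both branches also stabilise p53, a transcription factor whose targets include its own inhibitors and genes that slow growth and aid repair. BCL6 is a transcriptional repressor of germinal centre B cells, which divide fast while their antibody genes are being mutated. In that setting BCL6 has been described as a repressor of ATR and CHEK1.

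Of the 9 genes, only GADD45A had a summit of each list in its window. CHEK2, MDM2 and SESN1 had summits of replicate 1 alone and PPM1D of replicate 2 alone, while ATR, ATM, CHEK1 and GADD45B had none of either list. In all, 12 summits fell in the windows, 9 of replicate 1 and 3 of replicate 2. Of these, 5 lay inside a checkpoint gene, and 5 were nearer to another protein-coding gene than to the checkpoint gene. Set beside genes at large, 1 of 9 checkpoint genes had summits of both lists, against 15.6% of all protein-coding genes. The count was 4 of 9 for replicate 1, against 29.5% of all genes, and 2 of 9 for replicate 2, against 23.3%. Summits of replicate 1 alone were found at 3 of 9, against 13.9% of all genes, and of replicate 2 alone at 1 of 9, against 7.77%. At least 1 summit of either list was found at 5 of 9 checkpoint genes, against 37.3% of all genes, and none at 4 of 9, against 62.7%. With 9 genes these shares do not set the checkpoint genes apart.

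**Figure D1:**
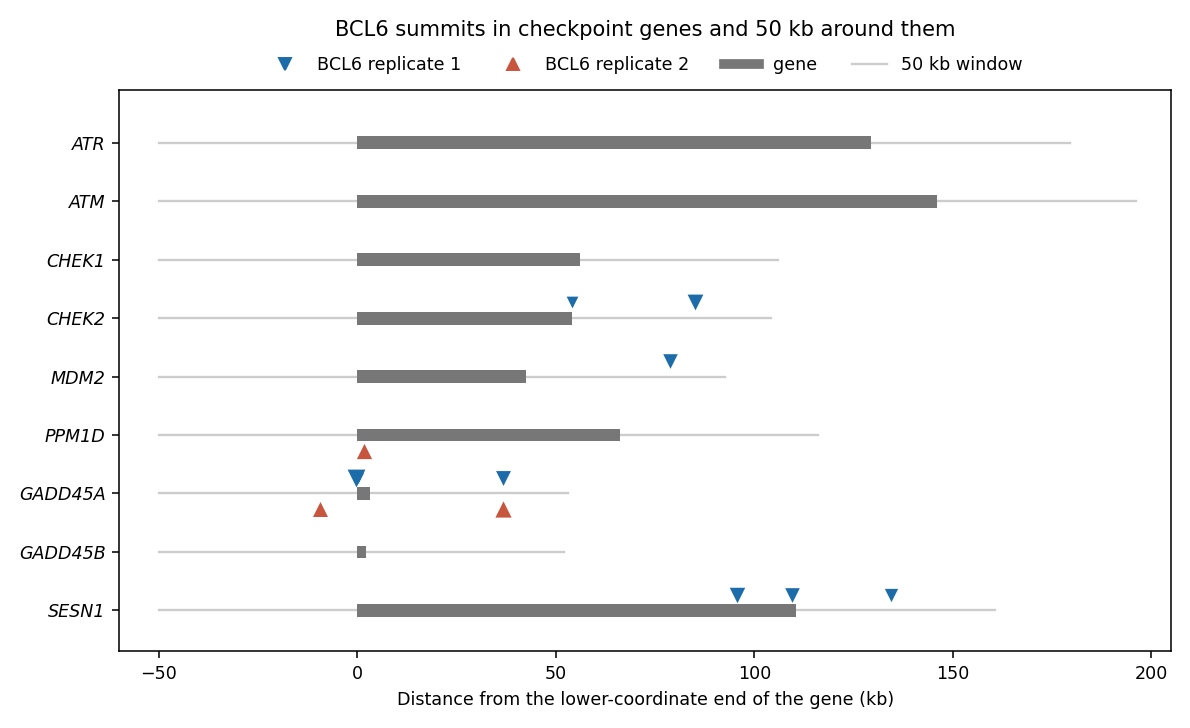
BCL6 summits (triangles, larger with fold enrichment) along each checkpoint gene (thick bar) and the 50 kb on both sides, in kb from the lower-coordinate end. Replicate 1 is above each gene and replicate 2 below, and the 2 replicate 1 summits at the lower end of GADD45A overlap in the drawing. GADD45A alone carries both colours, and 4 of the 9 genes carry none.

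The promoter windows of 4 genes are shown because the data bear on them in different ways. CHEK2, PPM1D and SESN1 each had a summit less than 2 kb downstream of a listed transcription start, while ATR had no peak nearby. The sequences are RefSeq bases of GRCh38.p14 before the start, each limited to bases that lie in no annotated gene, and capitals mark CCAAT boxes on either strand. They come from chr22:28741835-28742031 (minus strand) for CHEK2, chr17:60599943-60600192 (plus strand) for PPM1D, chr6:109094847-109095096 (minus strand) for SESN1 and chr3:142578734-142578983 (minus strand) for ATR.
CHEK2: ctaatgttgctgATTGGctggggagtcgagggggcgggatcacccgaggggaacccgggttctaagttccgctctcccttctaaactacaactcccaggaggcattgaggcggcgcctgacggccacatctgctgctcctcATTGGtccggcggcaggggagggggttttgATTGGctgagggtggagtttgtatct
PPM1D: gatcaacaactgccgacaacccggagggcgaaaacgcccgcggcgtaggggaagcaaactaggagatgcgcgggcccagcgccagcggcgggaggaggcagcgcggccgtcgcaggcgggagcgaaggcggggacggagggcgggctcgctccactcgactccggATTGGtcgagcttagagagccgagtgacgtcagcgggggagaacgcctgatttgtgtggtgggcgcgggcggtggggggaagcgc
SESN1: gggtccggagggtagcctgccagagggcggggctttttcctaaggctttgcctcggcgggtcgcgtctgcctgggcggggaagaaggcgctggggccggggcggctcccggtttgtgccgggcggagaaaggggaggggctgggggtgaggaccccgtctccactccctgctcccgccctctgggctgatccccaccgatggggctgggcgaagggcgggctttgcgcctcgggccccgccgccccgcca
ATR: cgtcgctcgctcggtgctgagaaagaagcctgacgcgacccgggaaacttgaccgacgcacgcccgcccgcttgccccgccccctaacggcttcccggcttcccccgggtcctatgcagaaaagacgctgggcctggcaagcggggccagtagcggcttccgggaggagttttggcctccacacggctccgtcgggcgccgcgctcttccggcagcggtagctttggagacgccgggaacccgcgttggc
CHEK2 held 3 CCAAT boxes in this stretch and PPM1D 1, while SESN1 and ATR held 0. Over all listed windows of the checkpoint genes, 7 of 8 genes held one, among them ATM, CHEK1 and GADD45B, which had no peak nearby. A CCAAT box on either strand was present in 36.3% of 15813 protein-coding promoters over windows of 300 bp. That share counts promoters, while the 7 of 8 counts genes with a box in any of their listed windows. The shares are therefore not like for like. The search for CCAAT was added after the sequences had been seen.

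Of the 9 genes, 8 had a window of 300 bp in the promoter table. GADD45A had none. No listed window of these 8 genes was overlapped by a peak of either list. The window of CHEK2 came closest, 27 bp from the edge of a replicate 1 peak. The windows were searched on both strands for the BCL6 core motif TTCCTNGAA and for the wider palindrome TTCNNNGAA, which every match of the core motif also matches. Neither was found in any listed window of the 8 genes. Among all 15813 promoters 1.30% held the narrower motif and 6.98% the wider one, so an empty result was the usual one. A full p53 site, made of 2 p53 decamers with a spacer of up to 3 bases, was found in 1 of the 15813 promoters and in none of the checkpoint genes. A single p53 decamer was present in 5.93% of all promoters and in 1 checkpoint gene. It lay before the innermost of 3 listed starts of SESN1, a known p53 target, at chr6:109009028-109009037 (minus strand). It is shown in capitals with 10 bases on both sides, as chr6:109009018-109009047.
SESN1 inner start: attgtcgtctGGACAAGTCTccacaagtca
The nearest replicate 1 peak lay 70.6 kb from the window of that start, and the nearest replicate 2 peak 443 kb. The peaks themselves were not searched for motifs, since no genome sequence was used.

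The kinases ATR, ATM and CHK1 had no BCL6 summit of either list at their genes. ATR, which responds to stalled replication forks, spans 129 kb of chromosome 3 from 142449235 to 142578733 on the minus strand. Its nearest replicate 1 summit lay 421 kb away, in or nearest to TFDP2, with a fold enrichment of 3.85. The nearest replicate 2 summit lay 1393 kb away with 2.85. ATM, which responds to double-strand breaks, spans 146 kb of chromosome 11 from 108223067 to 108369102. The nearest summits of both lists were 1927 kb away, nearest to RDX, with fold enrichments of 3.39 and 5.17. No peak of either list lay within 1 Mb of ATM, where the median protein-coding gene had 4 replicate 1 peaks and 3 replicate 2 peaks at that distance.

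CHEK1 encodes CHK1, the main effector kinase of ATR, and lies on chromosome 11 from 125625136 to 125681124. Its nearest summits were 879 kb away in replicate 1, with a fold enrichment of 5.47, and 207 kb away in replicate 2, with 6.20. CHEK1 and ATR, described elsewhere as repressed by BCL6, thus had no called peak even within 100 kb. ATR, ATM and CHEK1 are of 56.0 kb or longer. Of genes of 100 kb and over, 39.5% had a summit of either list and 60.5% did not. Of genes of 50 to 100 kb, 41.0% had a summit and 59.0% did not. A window without a summit was thus the more common state in both classes. A site below the calling threshold would not be listed. The smallest pileup in each list was 8, but calling also depended on the local background. A replicate 1 peak at CHEK2 with a pileup of 22 over a background of 7.86 had a −log10 q of only 1.89. Occupancy below the threshold was not detectable at this depth.

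CHEK2 encodes CHK2, the main effector kinase of ATM, and lies on chromosome 22 from 28687742 to 28741834 on the minus strand. A replicate 1 peak from 28741395 to 28741744 had its summit inside the gene, 113 bp downstream of the listed start. Its fold enrichment was 2.60, with a pileup of 22 (95% Poisson interval 13.8 to 33.3) over a background of 7.86. The −log10 q of 1.89 placed it at rank 4722 of 5230 in the list. The summit was also 325 bp from HSCB, an iron-sulfur cluster co-chaperone gene, so the peak lay close to the starts of a pair of genes. Peaks of this strength were seldom found again: of the replicate 1 peaks with −log10 q below 2, 12.8% overlapped a replicate 2 peak.

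A stronger replicate 1 peak in the window of CHEK2, from 28772722 to 28772998, lay 31.0 kb outside the gene and inside CCDC117, 165 bp from an end of that gene. Its fold enrichment was 4.71, its −log10 q was 9.35 and its pileup was 32 (21.9 to 45.2). No replicate 2 peak overlapped it, and the nearest replicate 2 summit was 19.3 kb away. That summit belongs to the pair of peaks just beyond the 50 kb limit. The pair lay 50.3 kb from CHEK2 in both lists and 2.38 kb from XBP1, a regulator of secretory cells, by the replicate 1 summit. Its fold enrichments were 5.92 in replicate 1 and 5.87 in replicate 2. No other checkpoint summit was as close to the limit: the farthest inside it were those 36.2 kb from MDM2 and 33.6 kb and 33.4 kb from GADD45A. CHEK2 therefore counted as a gene with a peak of 1 list because the nearest peak found in both fell just past the limit.

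**Figure D2:**
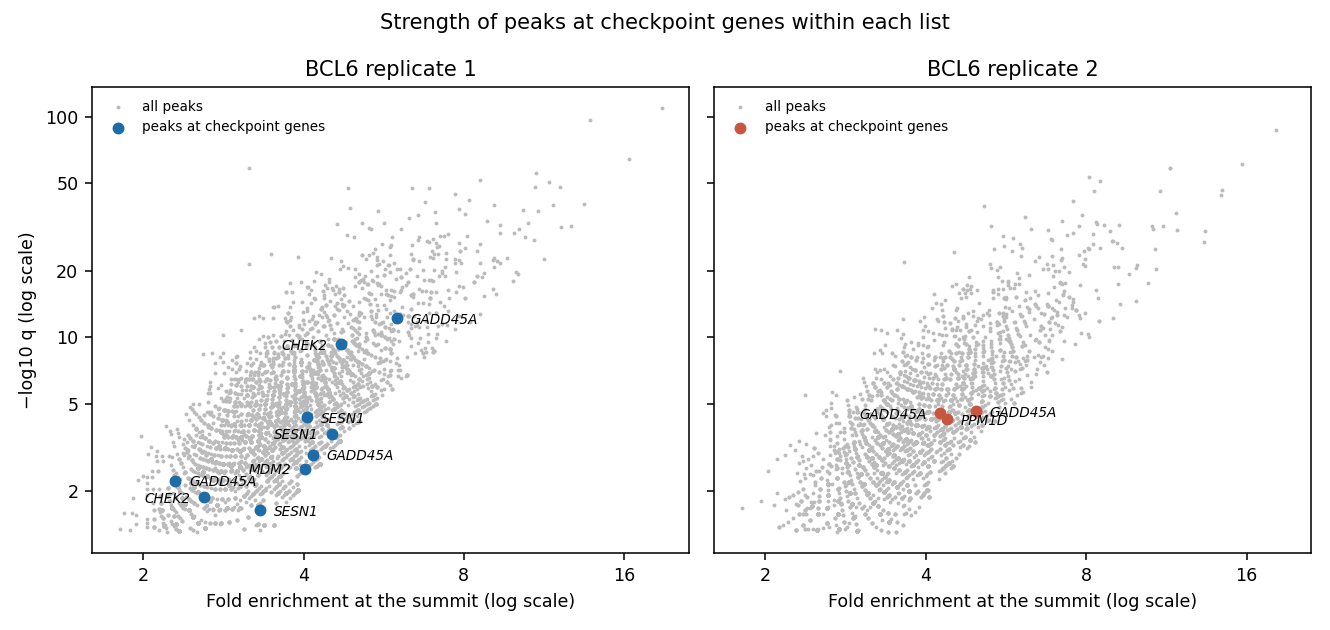
Fold enrichment (horizontal, log scale) against −log10 q (vertical, log scale) for all peaks of each BCL6 replicate (grey) and for peaks at checkpoint genes (coloured and named). The GADD45A peak of replicate 1 at 5.99 and the CHEK2 peak at 4.71 stand highest, and the 3 replicate 2 peaks sit close together at −log10 q between 4.25 and 4.63.

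MDM2 and PPM1D are p53 targets that switch p53 off again. MDM2 encodes the ubiquitin ligase that degrades p53 and lies on chromosome 12 from 68808172 to 68850686. The replicate 1 peak in its window, from 68886865 to 68887463, lay 36.2 kb outside the gene and inside CPM, which encodes a carboxypeptidase. Its fold enrichment was 4.02, but the pileup was 11 (95% Poisson interval 5.49 to 19.7) over a background of 1.99, and −log10 q was 2.54. The nearest replicate 2 summit was 390 kb from MDM2. No peak lay in MDM2 itself or within 10 kb of it.

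PPM1D encodes WIP1, a phosphatase that reverses phosphorylation by ATM and ATR, and lies on chromosome 17 from 60600193 to 60666280. It was the 1 checkpoint gene with a peak of replicate 2 alone. The peak from 60601672 to 60602038 had its summit 1.71 kb downstream of the listed start, inside the gene. Its fold enrichment was 4.38, with a pileup of 17 (95% Poisson interval 9.90 to 27.2) over a background of 3.11 and a −log10 q of 4.25, rank 1454 of 3529. The nearest replicate 1 summit was 707 kb from the gene. No other protein-coding gene was nearer than 75.7 kb to this summit. Of the replicate 2 peaks with −log10 q from 3 to 5, 31.8% overlapped a replicate 1 peak.

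GADD45A and GADD45B encode small stress proteins that slow the cell cycle and bind signalling kinases, and GADD45A is a p53 target. GADD45A is 3.13 kb long and lies on chromosome 1 from 67685201 to 67688334. Its window held 3 summits of replicate 1 and 2 of replicate 2, more than any other checkpoint gene. A pair of replicate 1 peaks flanked its lower end. The outer one ran from 67684712 to 67684985, and its summit was 359 bp away from the gene. Its fold enrichment of 5.99 and −log10 q of 12.2 were the highest of the 12 peaks, at rank 350 of 5230, and its pileup was 31 (95% Poisson interval 21.1 to 44.0) over a background of 4.34. The inner one, from 67685257 to 67685746, had its summit 218 bp inside the gene. It had the highest pileup of the 12, 33 (22.7 to 46.3), and the lowest fold enrichment, 2.30, over a local background of 13.8.

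Replicate 2 had no peak over either of these. Its nearest peak, from 67675598 to 67676204, lay 9.43 kb outside the same end, with a fold enrichment of 4.25, a pileup of 19 (11.4 to 29.7) and a −log10 q of 4.52. The replicates thus both had a peak within 10 kb of GADD45A, but at different positions, 9.07 kb apart at the closest. Of the replicate 1 peaks with −log10 q from 10 to 20, 62.3% overlapped a replicate 2 peak, so the outer peak was among the minority of its class that did not.

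The peaks of GADD45A that did overlap between replicates lay 33.4 kb beyond its upper end, inside GNG12, which encodes a G protein subunit. They spanned 67721658 to 67722570 together, shared 204 bp and had summits 145 bp apart. The fold enrichment was 4.17 in replicate 1 (95% interval 2.31 to 7.05, counting error of the pileup alone) and 4.96 in replicate 2 (2.91 to 7.98), so the intervals overlapped. The pileups were 12 (6.20 to 21.0) and 15 (8.40 to 24.7), and −log10 q was 2.94 and 4.63. The overlap made up 57.6% of the replicate 1 peak and 26.7% of the replicate 2 peak. This was the one region at a checkpoint gene that was found in both lists (1 of 9 genes, against 10.2% of all protein-coding genes).

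GADD45B, on chromosome 19 from 2476127 to 2478257, had no summit of either list in its window. Its nearest replicate 1 summit was 133 kb away, nearest to GNG7, with a fold enrichment of 6.53 and a −log10 q of 11.4. The nearest replicate 2 summit was 583 kb away with 4.00. Among genes under 10 kb, the class of GADD45A and GADD45B, 12.4% had summits of both lists and 68.9% had none.

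SESN1 encodes sestrin 1, a p53-induced inhibitor of the growth kinase mTORC1, and lies on chromosome 6 from 108984309 to 109094846 on the minus strand. All of its 3 summits came from replicate 1. The peak from 109093554 to 109093835 had its summit 1.15 kb downstream of the outermost listed start, with a fold enrichment of 4.06, a pileup of 19 (95% Poisson interval 11.4 to 29.7) and a −log10 q of 4.34. That summit was also 1.46 kb from another gene, CEP57L1. The peak from 109079789 to 109080093 lay further inside SESN1, 14.8 kb from the same end of SESN1, with 4.53, a pileup of 13 (6.92 to 22.2) and a −log10 q of 3.66. The third, from 109118291 to 109118657, lay 23.8 kb outside the gene and inside CEP57L1. It was the weakest of the 12 by −log10 q, at 1.64, with a fold enrichment of 3.32 and a pileup of 11 (5.49 to 19.7). The nearest replicate 2 summit was 419 kb from SESN1, nearest to FOXO3, so none of the 3 positions had a replicate 2 peak.

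**Figure D3:**
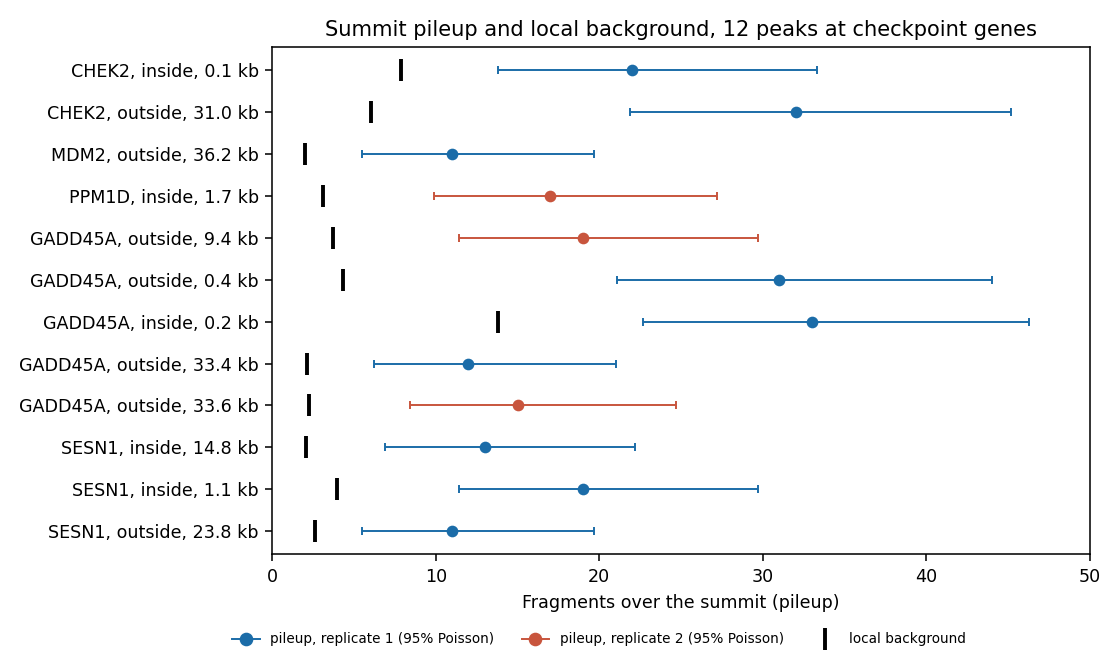
Number of fragments over the summit (points, with exact 95% Poisson intervals) and the local background (black ticks) for the 12 peaks at checkpoint genes, each named by gene, position and distance to the nearer gene end in kb. Pileups run between 11 and 33, and the background of the peak inside GADD45A, 13.8, is the highest.

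Across the 12 peaks the fold enrichment ranged between 2.30 and 5.99 and −log10 q between 1.64 and 12.2. Of the 9 replicate 1 peaks, 6 were above the median fold enrichment of their list and 3 were above its median −log10 q of 3.94. All 3 replicate 2 peaks were above both medians of their list, the median −log10 q being 3.77. Summed over the gene windows, replicate 1 had 5.96 summits per Mb at checkpoint genes and 3.29 per Mb at all protein-coding genes. For replicate 2 the densities were 1.99 and 2.35 per Mb. The replicates thus differed in direction, and the checkpoint values rest on 9 and 3 summits.

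The rest of the pathway was taken from a list of 50 other genes. Of these, 15 had summits of both lists (30.0%, against 15.6% of all genes). Another 12 had summits of 1 list only (24.0%, against 21.7%) and 23 of neither (46.0%, against 62.7%). Overlapping peaks were found at 10 (20.0%, against 10.2% of all genes). This list was drawn up from knowledge of the pathway with earlier results on some of its genes known, and the shares are descriptions with no test.

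**Figure D4:**
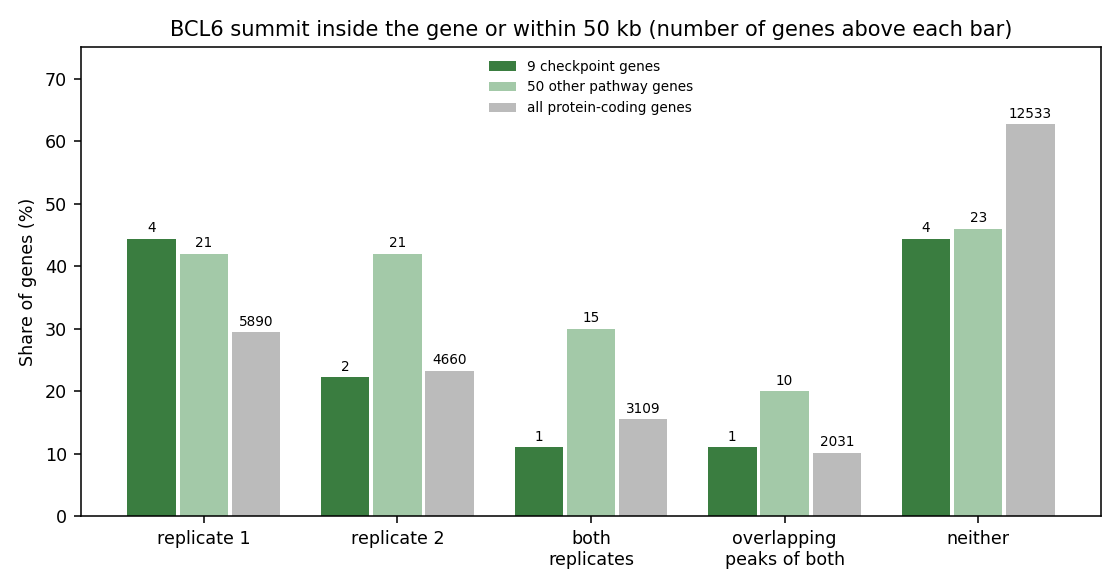
Share of genes (%) with a BCL6 summit inside the gene or within 50 kb, for the 9 checkpoint genes, 50 other genes of the pathway and all protein-coding genes, with the number of genes above each bar. The checkpoint genes with overlapping peaks of both replicates number 1, against 10 of the other pathway genes.

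Around ATR, 8 of 12 genes for its activation and for the replication fork had no summit of either list, a share near the 62.7% of all genes. Among them were ATRIP, the partner subunit of ATR, and TIMELESS, the fork protein that binds TIPIN. The exceptions with overlapping peaks were TIPIN and CLSPN. The TIPIN region, on chromosome 15 from 66369823 to 66370832 inside the gene, was the strongest of the list by the smaller of both fold enrichments, with 7.49 in replicate 1 and 6.55 in replicate 2. CLSPN encodes claspin, the adaptor that brings CHK1 to ATR, and its peaks 284 bp inside the gene by the replicate 1 summit had 2.03 and 3.39. Their −log10 q was 1.92 and 5.37, the replicate 1 peak being weak at rank 4709 of 5230. In the double-strand break response 0 of 10 genes had overlapping peaks, against 10.2% of all genes. Summits of both lists at different positions were found at NBN, MDC1 and H2AX (3 of 10, against 15.6% of all genes with summits of both lists). The grouping by role was made after the values were seen, so these counts are descriptions.

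Among cell cycle effectors, WEE1, the kinase that holds CDK1 inactive, had overlapping peaks 25.1 kb from the gene, at 2.54-fold and 2.72-fold enrichment. PKMYT1, CDC25B and CDC25C had no summit (3 of 5, near the 62.7% of all genes). CDC25A had a summit of replicate 2 alone, 44.6 kb outside the gene, with a fold enrichment of 4.03. Among regulators of p53, USP7, a deubiquitinase of MDM2 and p53, had 5 replicate 1 summits and 2 replicate 2 summits, with an overlapping pair inside the gene at 3.38 and 4.34.

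Of 20 p53 target genes, 6 had overlapping peaks, against 10.2% of all genes. They were BTG2, XPC, DDB2, CCNG1, TIGAR and AEN, but XPC and AEN had no pair to which they were the nearest gene. BTG2, an antiproliferative gene, had a region on chromosome 1 from 203327212 to 203328374 with fold enrichments of 7.07 and 6.02. It lay 18.3 kb outside BTG2 and nearer to FMOD. BTG2 also had a weaker overlapping pair just outside the gene, with summits 1.05 kb away in replicate 1 and 0.478 kb away in replicate 2 and fold enrichments of 3.47 and 3.34. The region in the window of XPC, a DNA repair gene, lay 20.0 kb outside it and inside TMEM43, with 4.70 and 7.16. That in the window of AEN lay 6.86 kb outside it by the replicate 1 summit and inside ISG20, with 2.42 and 3.17. TIGAR, a regulator of glucose metabolism, had 4.85 and 3.57 at 387 bp outside the gene. CCNG1, encoding cyclin G1, had 4.82 and 2.91 at 227 bp inside, and DDB2, a sensor of ultraviolet damage, had 2.73 and 3.01 at 311 bp inside. The −log10 q was 7.20 and 1.75 for CCNG1, the replicate 2 peak being weak at rank 3208 of 3529. For DDB2 it was 4.89 and 4.04. TIGAR, CCNG1, DDB2 and CLSPN had overlapping peaks with both summits within 1 kb of a gene end. No share of all protein-coding genes was computed at that limit. Within 10 kb of either end it was 4.72%. In 8 of the 10 pathway genes with overlapping peaks, the gene itself was the nearest to the replicate 1 summit of at least 1 pair.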

How the data were processed

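BCL6 CUT&RUN was measured in 2 replicates of SUDHL5, each with its own peak list, and samples were grouped by their titles. The submitters' processing notes name MACS2 for peaks and Bowtie2, SAMtools, Picard, cutadapt, FastQC, deepTools and bedtools, with build hg38. Tool versions, settings and the control library were not given in the sources used here. Per-sample lists were deposited by the authors. They follow the narrowPeak layout and give each peak a fold enrichment (a ratio), a −log10 p, a −log10 q and a summit. The deposited score is 10 times −log10 q and was not used. The smallest −log10 q, 1.31, corresponds to a q of 0.05.

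Peaks outside chromosomes 1 to 22 and X were left out. Gene positions and promoters came from RefSeq tables of GRCh38.p14, whose chromosomes are those of hg38, and all 9 members and 50 pathway genes matched by symbol. The whole-number pileup and background at each summit were solved from the authors' fold enrichment, (pileup + 1) / (background + 1), and Poisson p, within 0.001 on the −log10 scale for all peaks kept. Intervals are exact Poisson 95% intervals. They describe counting error of the pileup alone, with the background held fixed. No allowance was made for the choice of each summit as the highest point of a called peak. Where copies made by PCR were counted as separate molecules, the intervals are too narrow. Peaks sharing at least 1 bp counted as overlapping. Distances are to the nearer annotated end unless a listed start is named.

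The series gives 1 condition, so counts were set beside those of all protein-coding genes with no test. Members and lists were chosen with earlier results of these data known. Named genes are all members, the genes nearest to their summits (and to the nearest peaks of members without one), and the 8 pathway genes with the largest smaller fold enrichment. Other pathway names, the grouping by role and the CCAAT search were chosen after values were seen. Alternatives were other windows, minimum −log10 q, peak edges, single lists and other overlap rules. Window and pileup steps were tested on simulated data. Python 3.11.15, pandas 2.3.3, numpy 2.4.6 and scipy 1.17.1 were used.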

Additional observations from a re-analysis of the deposited data

How the results depend on the processing

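With 10 kb on both sides, or within 10 kb of either end only, GADD45A was still the 1 gene with summits of both lists, but 0 genes had overlapping peaks. Of all protein-coding genes, 5.78% and 4.72% had overlapping peaks at these settings. With 100 kb, or with any base of a peak in the window, CHEK2 joined GADD45A through the region near XBP1, giving 2 genes with summits of both lists and 2 with overlapping peaks. Overlapping peaks were then found at 15.1% of all genes with 100 kb and at 10.2% with any base. Peaks of both lists were found at 15.6% of all genes with any base. Peaks of −log10 q of at least 5 left 2 genes in replicate 1 (CHEK2 and GADD45A), 0 in replicate 2, 0 in both and 0 with overlapping peaks. Of all genes, 14.1% had such a summit in replicate 1, 9.82% in replicate 2 and 4.49% had overlapping peaks. A minimum of 10 left 1 gene in replicate 1 (GADD45A), 0 in replicate 2, 0 in both and 0 with overlapping peaks. The shares of all genes at that minimum were 4.92% for replicate 1, 3.43% for replicate 2 and 2.39% for overlapping peaks. Reciprocal overlap of at least 50% left 0 genes with overlapping peaks, while summits within 200 bp or 1 kb gave 1. No share of all genes was computed under these overlap rules. Single lists (each replicate left out in turn) gave between 2 and 4 checkpoint genes, 21 of 50 pathway genes in each list, and between 4660 and 5890 of all genes. The 15 pathway genes with summits of both lists became 6 at −log10 q of at least 5 and 3 at 10. For all protein-coding genes 3109 became 1609 (8.06%) with 10 kb, 4819 (24.1%) with 100 kb, 1258 (6.30%) near ends only, 1155 (5.78%) at −log10 q of at least 5 and 490 (2.45%) at 10. The counts of single lists at checkpoint genes changed by no more than 1 gene under the other windows. No paired analysis was possible because only the BCL6 samples have values here and no test was run. Pileups of 11 to 33 limit what can be said: a gene with no listed peak may carry weaker occupancy.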

Other observations

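The surroundings of the checkpoint genes differed in how many peaks they held. Within 1 Mb, PPM1D had 10 replicate 1 peaks and 11 replicate 2 peaks, where the middle 50% of all protein-coding genes had 2 to 8 and 1 to 5. GADD45A had 9 and 4, CHEK2 had 7 and 1, and ATM had 0 and 0. The counts at PPM1D were thus high in both lists at the scale of 1 Mb, but its nearest replicate 1 summit was 707 kb from the gene. Its own peak was in replicate 2 alone.

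SESN1 and ARMC2 are neighbours on chromosome 6, and a replicate 1 peak inside ARMC2, 79.3 kb from SESN1, had a fold enrichment of 3.90 with a −log10 q of 2.03. CDKN1A, a p53 target that encodes a cyclin-dependent kinase inhibitor, had a summit of replicate 1 alone within 50 kb, as had 13.9% of all genes. The peak was weak, with a fold enrichment of 2.44 and a −log10 q of 1.65, rank 4986 of 5230. It lay 11.6 kb outside the gene. CDKN1A was named after its values were seen.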
